A study of Homo sapiens
Mus musculus with 24 samples.

Results

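Pecam1, Cdh5, Kdr, Flt1, Tek, Tie1, Emcn, Esam, Eng and Cldn5, 10 genes of the host blood vessel, were followed through xenograft tumors of obese and lean mice. They were chosen by name, and all 10 were found among the 16667 genes of the murine table, each under 1 Ensembl identifier; the tables carry no chromosome positions. Every host was a B6/Rag1KO mouse, a strain without mature T and B cells, female per the study's methods. Each mouse was injected under the skin at 14 weeks of age, after 10 weeks on its diet, with MDA-MB-231 cells, an established human line of triple negative breast cancer. Obese mice on a high-fat diet with tumors above 200 mm3 were randomized to vehicle (CTRL, weekly intraperitoneal saline, n = 4), doxorubicin with cyclophosphamide (Chemo, weekly intraperitoneal injection, n = 5), the high-fat diet with moringa concentrate (MC, n = 5), or that diet with the same 2 drugs (MC + Chemo, n = 6). Tumors of mice on the Lean diet that had no intervention were kept as a diet control (Lean, n = 4). Whether MC and Lean mice had a saline injection too is not given in the labels. The hosts lack adaptive immunity, the tumors came from 1 cell line, and the transcripts stand for whole tumor pieces, not for sorted vessels.

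Endothelial cells line every blood vessel and are held together by junctions that also set how leaky the vessel is. Vascular endothelial growth factors act on them through receptor tyrosine kinases, of which Kdr (VEGFR2) carries most of the growth signal while Flt1 (VEGFR1) binds the ligand tightly and holds much of it back. A second receptor pair, Tek (TIE2) and its partner Tie1, answers to the angiopoietins and steadies the vessel wall. In a xenograft the vessels grow in from the host, so their transcripts are murine while those of the tumor cells are human.

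Murine counts per library ran from 3664056 to 9892470, and human counts made up 60.1 to 74.0% of each library apart from MC 41 at 47.8%. Libraries are called by group and mouse number. All 10 genes had reads in all 24 libraries, from 3.84 normalized counts for Cldn5 in CTRL 17 to 1452 for Pecam1 in Lean 3. Rag1 was at 0.88 to 23.1 normalized counts in all groups, and where its tags lie relative to the knocked-out part is not given in the sources used here. For mouse 5 the labels conflict, since its title names both treatments and another field names MC alone; the title was followed. MC 41, MC 42 and Lean 3 had an extra RNA cleanup.

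Vessel transcripts were most abundant in Lean and in MC tumors and least abundant in MC + Chemo tumors, though the order of the lower means depended on CTRL 17 and MC + Chemo 52. The summed normalized count of the 10 genes averaged 5938 ± 649 (mean ± SD) over the 4 Lean tumors, 5440 ± 339 over the 5 tumors of MC, 4334 ± 614 over the 5 of Chemo, 3788 ± 2061 over the 4 of CTRL and 3457 ± 1513 over the 6 of MC + Chemo. Without MC + Chemo 52 the mean of that group was 3915 ± 1136 (n = 5), above CTRL. Without CTRL 17 that of CTRL was 4768 ± 783 (n = 3), above Chemo. With both tumors left out, MC + Chemo again had the lowest mean. The medians with all libraries were 3584 in MC + Chemo, 4524 in CTRL and 4642 in Chemo. Gene by gene, Lean had the highest mean for 8 of the 10 and MC for the other 2, Flt1 and Tie1. MC + Chemo had the lowest mean for 8 and CTRL for the other 2, Esam and Cldn5. Of the 40 steps between neighbouring groups in these orders, 34 were smaller than the larger of the 2 SDs, and in 39 the libraries of the neighbours overlapped. The exception to overlap was Tie1, whose Lean libraries lay above those of Chemo, as did those of Cdh5 and Emcn, where other groups lay between (1.04% of all genes did so). In whole tissue, fewer endothelial cells and less RNA per endothelial cell cannot be told apart.

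**Figure D1:**
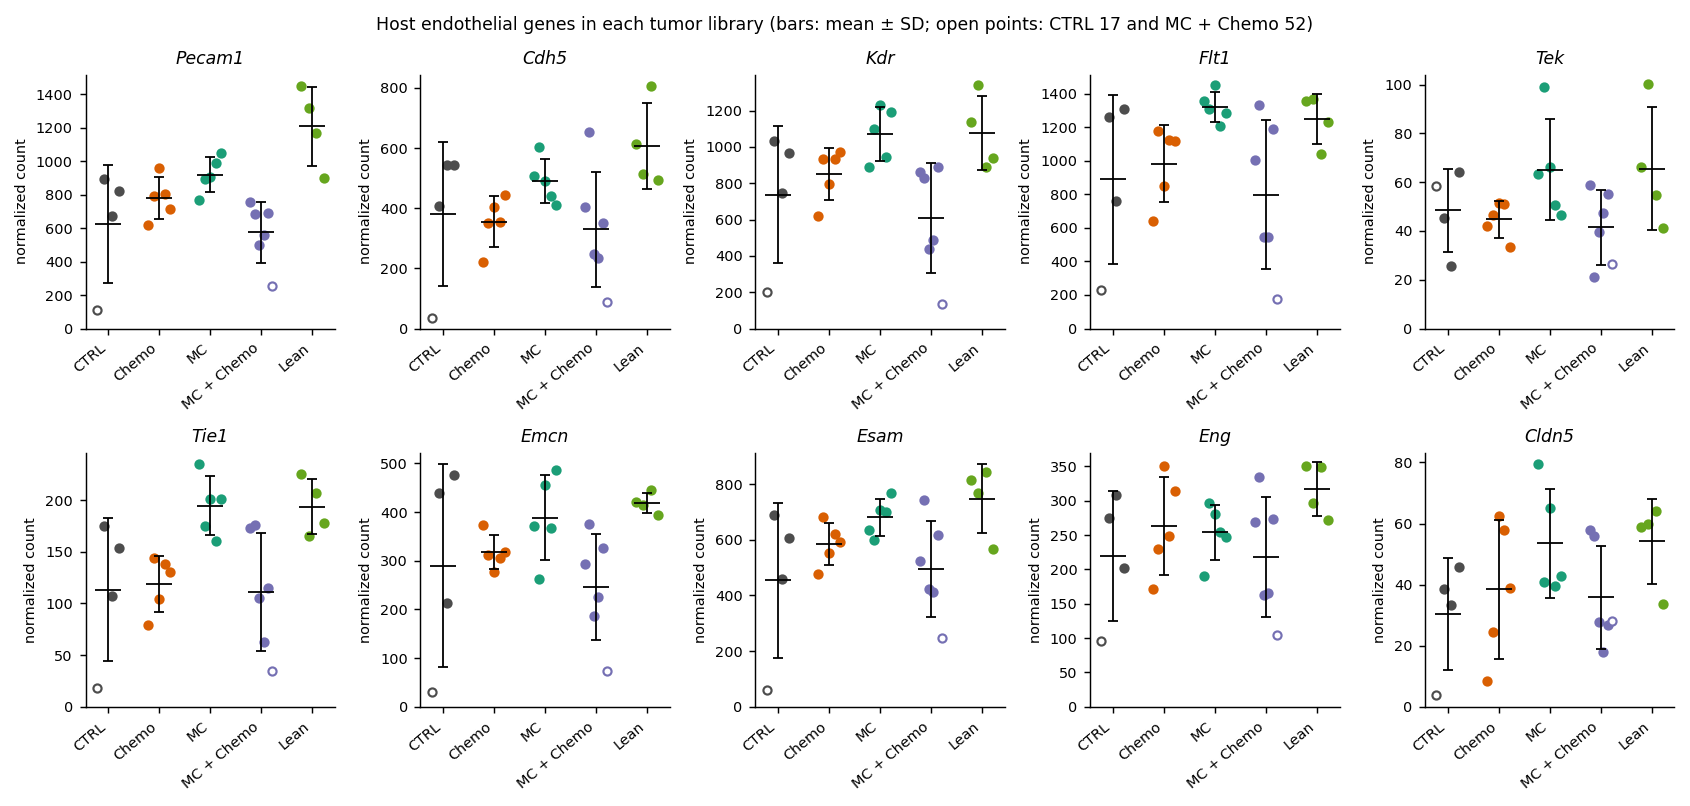
Normalized count (linear axis from 0) of each of the 10 genes in every tumor library by group, with bars for the mean ± SD and open points for CTRL 17 and MC + Chemo 52. MC libraries of Pecam1 sit between 768 and 1050, all above the MC + Chemo libraries at 254 to 758, while most other groups overlap.

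Vessel transcripts were scarce in 2 libraries, and these set much of the spread. The summed count was 848 in CTRL 17, against 3865 to 5254 in the other CTRL tumors, and 1169 in MC + Chemo 52. The other MC + Chemo tumors lay at 2672 (MC + Chemo 43), 2760 (47), 4407 (5), 4536 (50) and 5201 (25), so MC + Chemo held both some of the lowest and some ordinary values. No MC tumor was under 5092 and no Lean tumor under 5048. In CTRL 17 the Cdh5 count was 6.38% of the median of the other CTRL tumors, that of Emcn 6.98% and that of Eng 34.7%, while Tek was at 129%. In MC + Chemo 52 the lowest were Kdr at 16.5% and Flt1 at 17.5% of the median of the other MC + Chemo tumors, and Cldn5 was at 101%. The same tumors were low in pericyte and mural genes, which mark the cells wrapped around vessels (summed 2424 and 2818, against 3449 to 11819 in the other 22 libraries). Their human share of counts, 66.1 and 70.3%, was within the range of the other libraries. Their summed adipocyte genes lay far apart, with the lowest sum of all libraries in CTRL 17 (109) and the second highest in MC + Chemo 52 (58334). The part of these tissues in the vessel values was not tested.

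**Figure D2:**
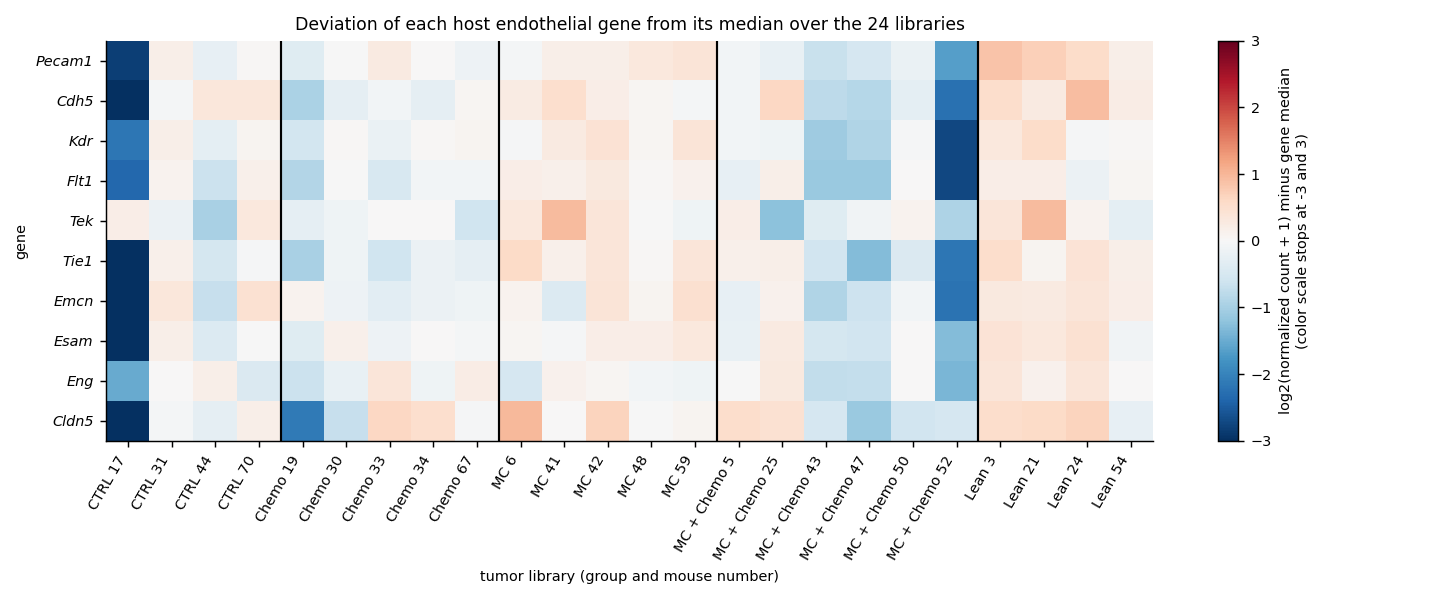
Log2 of normalized count plus 1 of each gene minus its median over the 24 libraries, with rows for genes, columns for tumor libraries, black lines between groups and a color scale that stops at -3 and 3. CTRL 17 and MC + Chemo 52 are low for nearly all genes, MC + Chemo 43 and 47 are lower than most, and Tek does not share the low of CTRL 17.

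Kdr, the main signalling receptor for VEGF, was measured at 203, 1031, 746 and 966 normalized counts in the 4 CTRL tumors (736 ± 376) and at 622, 932, 796, 935 and 971 in Chemo (851 ± 145). In MC it was at 887, 1096, 1232, 945 and 1190 (1070 ± 150), and in MC + Chemo it ran from 136 through a median of 658 to 891 (607 ± 304). In Lean it was at 1138, 1338, 890 and 938 (1076 ± 205). The highest MC + Chemo tumor thus barely passed the lowest MC tumor. Flt1, which binds VEGF and placental growth factor, was at 231, 1263, 760 and 1306 in CTRL (890 ± 504), and at 638, 1177, 850, 1125 and 1118 in Chemo (982 ± 230). It was at 1356, 1311, 1450, 1204 and 1287 in MC (1321 ± 90.4), ran from 176 through a median of 775 to 1331 in MC + Chemo (798 ± 446), and was at 1353, 1367, 1042 and 1231 in Lean (1248 ± 150). The MC tumors were the most alike for Flt1, with the highest only 1.204 times the lowest, whereas in MC + Chemo that ratio was 7.56.

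Tek, the angiopoietin receptor, was scarce, at 58.6, 45.4, 25.6 and 64.1 normalized counts in CTRL (48.4 ± 17.1) and 42.01, 46.5, 51.4, 51.2 and 33.3 in Chemo (44.9 ± 7.57). In MC it was at 63.5, 98.9, 66.1, 50.8 and 46.6 (65.2 ± 20.6), in MC + Chemo it ran from 21.2 through a median of 43.6 to 58.7 (41.5 ± 15.2), and in Lean it was at 66.3, 100.2, 54.6 and 41.3 (65.6 ± 25.2). Tek was the 1 gene of the 10 that was not lowest in CTRL 17 within its group. Its partner Tie1, which has no well-established ligand of its own and modulates Tek, was at 18.2, 175, 108 and 153 in CTRL (113 ± 69.4) and at 79.2, 144, 104, 138 and 130.2 in Chemo (119 ± 27.1). Tie1 was at 235, 175, 201, 160.1 and 201 in MC (194 ± 28.6), from 34.3 through a median of 110.3 to 176 in MC + Chemo (111 ± 57.1), and at 225, 166, 207 and 178 in Lean (194 ± 27.0). Every MC tumor had more Tie1 than every Chemo tumor, as also held for Flt1 among the 10 (0.44% of all 15011 genes lay higher in MC than in Chemo without overlap), and this pair of groups was not tested.

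Pecam1 (CD31), an adhesion molecule of endothelial junctions that platelets and leukocytes also carry, was at 111, 893, 670.2 and 821 normalized counts in CTRL (624 ± 354). It was at 620.5, 790, 962, 804 and 715 in Chemo (778 ± 126), at 768, 894, 906, 987 and 1050 in MC (921 ± 106), and from 254 through a median of 622 to 758 in MC + Chemo (575 ± 183). In Lean it was at 1452, 1317, 1172 and 899 (1210 ± 237). Thus all 6 MC + Chemo tumors lay below all 5 MC tumors, and all 4 Lean tumors lay above all 4 CTRL tumors, though Lean 54 passed CTRL 31 by few counts. The paper reported less CD31 protein staining in MC tumors than in CTRL and MC + Chemo tumors, while the Pecam1 mean was higher in MC than in both. By edgeR these Pecam1 differences had adjusted p = 0.572 for MC against CTRL and 0.512 for MC + Chemo against MC. Without CTRL 17 the CTRL mean was 795 ± 114 (n = 3). The staining was a percentage of stained area, an unlike measure to a count per library. RNA and protein were not compared tumor by tumor here. Cdh5 (VE-cadherin), the cadherin of the adherens junction, was at 34.6, 406, 542 and 543 in CTRL (382 ± 240) and at 221, 351, 403, 354 and 445 in Chemo (355 ± 84.2). It was at 506, 605, 490.4, 441 and 412 in MC (491 ± 74.2), from 88.9 through a median of 299 to 653 in MC + Chemo (330 ± 192), and at 613, 514, 806 and 494 in Lean (607 ± 143). Its highest MC + Chemo tumor, MC + Chemo 25, was above every MC tumor.

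Esam, an adhesion molecule of the tight junction, was at 61.5, 687, 459 and 608 normalized counts in CTRL (454 ± 278), and at 476, 680.3, 552, 620.5 and 593 in Chemo (584 ± 76.3). It was at 635, 598, 706, 700 and 767 in MC (681 ± 65.9), from 247 through a median of 473 to 742 in MC + Chemo (494 ± 173), and at 814, 767, 842 and 566 in Lean (747 ± 125). Here CTRL had the lowest mean, and without CTRL 17 it was 585 ± 116 (n = 3), above MC + Chemo. Cldn5, the claudin that seals endothelial tight junctions, was the scarcest, at 3.84 to 45.9 in CTRL (30.4 ± 18.4), 8.40 to 62.5 in Chemo (38.4 ± 22.6), 39.6 to 79.4 in MC (53.5 ± 17.8), 18.0 to 58.0 in MC + Chemo (35.8 ± 16.9) and 33.8 to 64.2 in Lean (54.1 ± 13.8). All groups of Cldn5 overlapped, and CTRL 17 and Chemo 19 held the lowest values.

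Emcn (endomucin), a mucin of capillary and venous endothelium, was at 30.7, 440.3, 214 and 476 normalized counts in CTRL (290.2 ± 208) and 374, 313, 277, 307 and 318 in Chemo (318 ± 35.3). It was at 371, 262, 455, 368 and 486 in MC (388 ± 87.4), from 74.0 through a median of 259.5 to 377 in MC + Chemo (247 ± 109), and at 421, 415, 445 and 395 in Lean (419 ± 20.4). Lean varied least, with 1.13 times between its ends. Eng (endoglin), a co-receptor for the TGF-beta family that is also made by some stromal cells and macrophages, was at 95.1, 274, 308 and 202 in CTRL (219.6 ± 94.1), and at 172, 230.3, 351, 249 and 314 in Chemo (263 ± 70.7). It was at 190.5, 297, 280.04, 255 and 247 in MC (254 ± 40.5), from 104 through a median of 217.5 to 334 in MC + Chemo (218 ± 87.2), and at 351, 297, 349.7 and 273 in Lean (317 ± 39.1). Eng was the 1 gene whose Chemo mean was above its MC mean.

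The first question was what each treatment did without the other. Under Chemo alone 8 of the 10 vessel genes were higher than in CTRL, where 49.7% of all 15011 genes tested were higher, and the median log2 fold change was 0.18 (all genes -0.0021). The extremes were Esam at 0.36 ± 0.40 (log2 fold change ± SE, edgeR, adjusted p = 1.00) and Tek at -0.12 ± 0.31. Without CTRL 17 only 1 of the 10, Eng, was higher and the median was -0.07 (49.3% of all genes higher), so the direction rested on that tumor. The median was 0.39 without CTRL 31, with 8 higher, and 0.39 without CTRL 70, with all 10 higher. By edgeR 0 of the 10 met the 3 criteria of an adjusted p below 0.05, a mean count above 30 and a fold change above 1.5 (0% of all genes), and 0 had an unadjusted p below 0.05 (4.53% of all genes). By DESeq2 0 of the 10 met the criteria (0.0933% of all genes).

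Under MC alone all 10 genes were higher than in CTRL (50.0% of all genes), with a median log2 fold change of 0.56 against 0.00053 over all genes. Cldn5 (0.81 ± 0.53) and Tie1 (0.78 ± 0.45, adjusted p = 0.510) were furthest up and Eng least (0.23 ± 0.32). Without CTRL 17 the median was 0.22 with 8 of the 10 higher (48.8% of all genes), Cdh5 at -0.02 and Eng at -0.04, and Tie1 was at 0.41. Without MC 41 the median was 0.55 with all 10 higher. By edgeR 0 genes met the criteria (0% of all genes) and 0 had an unadjusted p below 0.05 (11.8% of all genes), and by DESeq2 0 met the criteria (1.43% of all genes).

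With both treatments, against CTRL, 2 of the 10 genes were higher (51.1% of all genes) and the median was -0.15 (all genes 0.01). It was -0.45 with 0 higher without CTRL 17, 0.04 with 6 higher without MC + Chemo 52, and -0.26 with 0 higher without both tumors. Esam was at 0.11 ± 0.39 and Kdr at -0.28 ± 0.40. Neither edgeR (0% of all genes) nor DESeq2 (0.826%) put any of the 10 past the criteria, and 0 had an unadjusted p below 0.05 (12.4% of all genes).

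The second question was how each treatment differed when the other was given. Adding MC to chemotherapy went with lower values: all 10 genes were lower in MC + Chemo than in Chemo (47.1% of all genes), by a median of -0.27 on the log2 scale (all genes 0.02). Kdr (-0.49 ± 0.38, adjusted p = 0.641) and Pecam1 (-0.45 ± 0.34, adjusted p = 0.643) were lowest. Without MC + Chemo 52 the median was -0.10 with 7 of the 10 lower (46.4% of all genes), and Kdr was at -0.28 and Pecam1 at -0.29. By edgeR 0 genes met the criteria (0% of all genes) and 0 had an unadjusted p below 0.05 (11% of all genes), and by DESeq2 0 met the criteria (0.147%).

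Adding chemotherapy to MC gave the widest gap among the high-fat groups. All 10 genes were lower in MC + Chemo than in MC (55.5% of all genes), by a median of -0.66 (all genes -0.04). Kdr was at -0.83 ± 0.38 (adjusted p = 0.492), Tie1 at -0.83 ± 0.40 (adjusted p = 0.511), Flt1 at -0.75 ± 0.40 (adjusted p = 0.543), Pecam1 at -0.70 ± 0.34 (adjusted p = 0.512) and Tek at -0.65 ± 0.28 (adjusted p = 0.492), and Eng was least at -0.24 ± 0.29. The adjusted p values by edgeR ran from 0.492 to 0.795, so 0 genes met the criteria (0% of all genes). At an unadjusted p below 0.05, 2 of the 10, Kdr and Tek, were lower (6.16% of all genes) by edgeR and 4, with Pecam1 and Tie1 added, by DESeq2 (6.12%), where 0 met the criteria (0.0466%). Pecam1 was the 1 gene whose groups did not overlap (0.5% of all genes lower without overlap).

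That gap did not rest on MC + Chemo 52, but single p values moved with 1 library. Without MC + Chemo 52 the median was -0.54 with all 10 lower and 0 at an unadjusted p below 0.05. Without both CTRL 17 and MC + Chemo 52, a setting chosen after seeing the data, the median was again -0.54. In that setting 5 of the 10 had an unadjusted p below 0.05 (5.95% of all genes lower): Pecam1, Kdr, Tie1, Flt1 and Emcn. CTRL 17 is in neither group and enters only through the shared fit, where all high-fat groups have 1 estimate of the spread. Without MC 41 the median was -0.69 and Tek was at -0.44. With 1 library left out at a time, 0 to 4 of the 10 had an unadjusted p below 0.05: 0 without MC 41, MC 42 or MC + Chemo 52, 1 without MC 59, MC + Chemo 43 or MC + Chemo 47, 3 without MC + Chemo 25 (5.78% of all genes lower) and 4 without MC + Chemo 5 (6.01%) or MC + Chemo 50 (5.63%). Over all these settings 3.46 to 7.69% of all genes were lower at that level. With MC + Chemo 5 counted as MC the median was -0.75, with 4 of the 10 at an unadjusted p below 0.05 (5.25% of all genes lower).

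**Figure D3:**
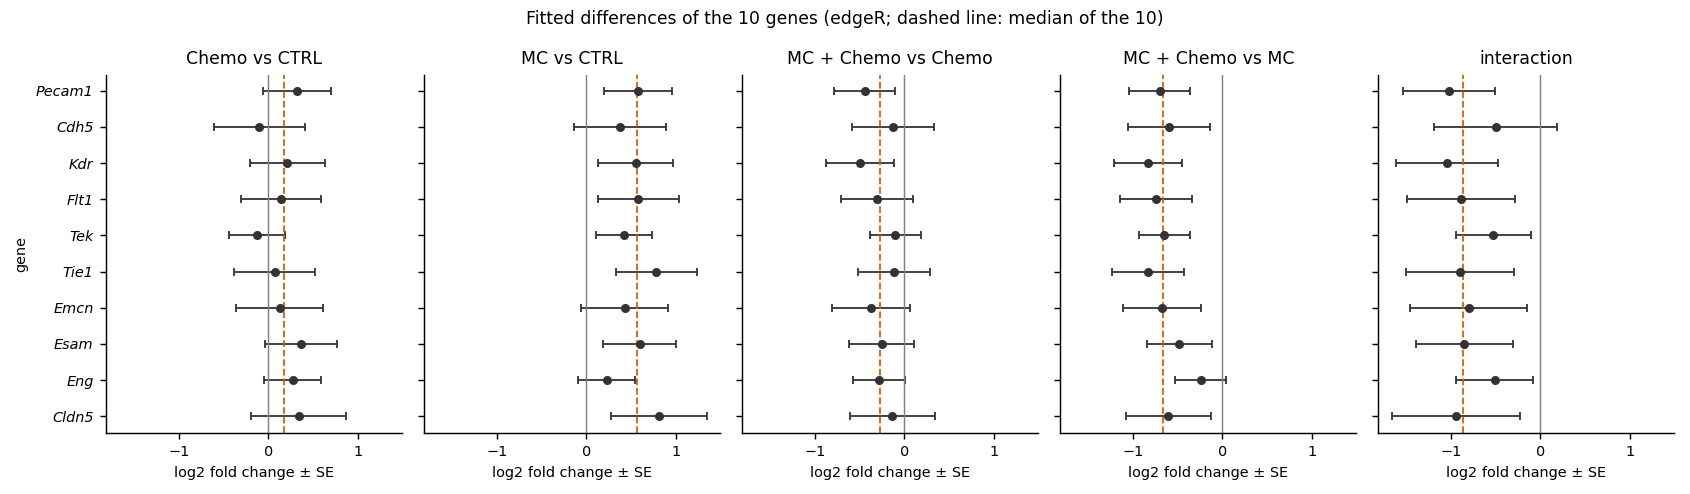
Fitted log2 fold change ± SE (edgeR, horizontal axis) of each of the 10 genes in 4 comparisons and in the interaction of MC and chemotherapy, with a dashed line at the median of the 10. All 10 points lie right of 0 for MC vs CTRL (median 0.56) and left of 0 for MC + Chemo vs MC (median -0.66) and for the interaction (median -0.87), with SEs of 0.28 or more.

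The interaction asks whether the 2 treatments add up, as the chemotherapy difference with MC minus that without MC. It was below 0 for all 10 genes (54.1% of all genes), with a median of -0.87 (all genes -0.04). Kdr was at -1.04 ± 0.57 (adjusted p = 0.703) and Pecam1 at -1.02 ± 0.51 (adjusted p = 0.695), followed by Cldn5 (-0.94 ± 0.71), Tie1 (-0.90 ± 0.61), Flt1 (-0.89 ± 0.60), Esam (-0.85 ± 0.54) and Emcn (-0.80 ± 0.65). Tek (-0.52 ± 0.42), Eng (-0.51 ± 0.43) and Cdh5 (-0.50 ± 0.69) were nearest to 0. By edgeR 0 of the 10 met the criteria (0% of all genes) and 0 had an unadjusted p below 0.05 (6.87%), and by DESeq2 0 met the criteria (0% of all genes). The interaction and the comparisons above share the same 20 libraries, so their directions are not separate evidence.

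The size of the interaction hung on the low tumors. The median was -0.55 without CTRL 17 and -0.69 without MC + Chemo 52. Without both, a setting chosen after seeing the data, it was -0.35 and 9 of the 10 were below 0 (52.8% of all genes). Cdh5 was then at 0.08, Kdr at -0.52 and Pecam1 at -0.51, and Pecam1 was the 1 gene with an unadjusted p below 0.05 (2.36% of all genes below 0). Without CTRL 70 the median was -1.12 and without CTRL 31 it was -1.09.

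**Figure D4:**
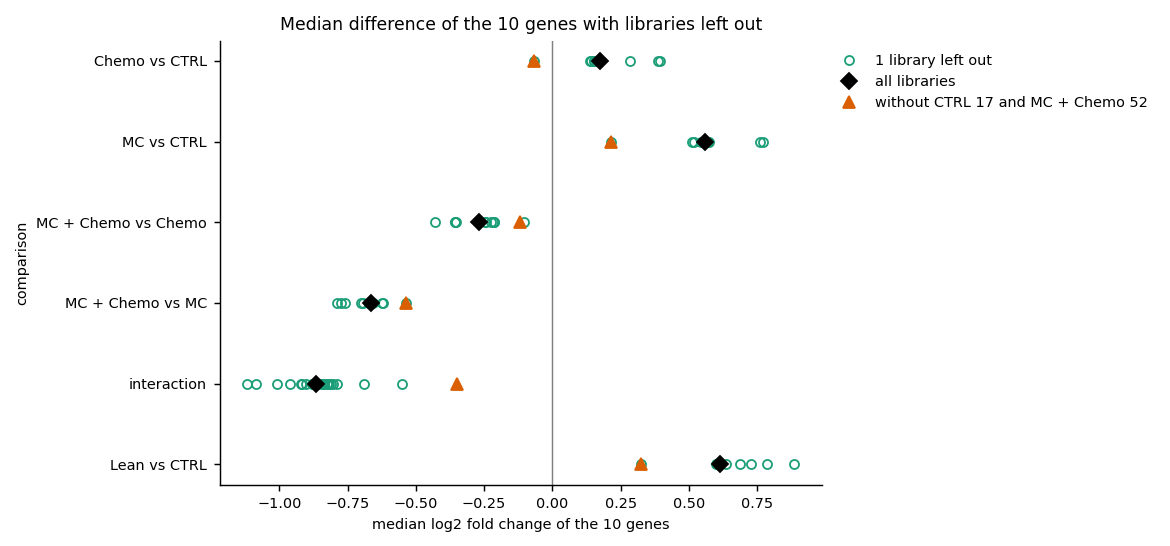
Median log2 fold change of the 10 genes (horizontal axis) in 5 comparisons and the interaction, with diamonds for all libraries, open circles with 1 library left out in turn and triangles without CTRL 17 and MC + Chemo 52. The interaction runs from -1.12 to -0.55 with 1 library left out and reaches -0.35 without both tumors, and Chemo vs CTRL crosses 0.

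Diet without treatment gave the 1 further comparison. All 10 genes were higher in Lean than in CTRL (48.7% of all 15029 genes tested), with a median log2 fold change of 0.61 (all genes -0.01). Pecam1 was at 0.96 ± 0.38 (adjusted p = 1.00) and was the 1 gene with an unadjusted p below 0.05 (1.37% of all genes higher) and without overlap (1.46% of all genes higher without overlap). Cldn5 (0.83 ± 0.52), Tie1 (0.77 ± 0.44) and Esam (0.72 ± 0.40) followed. Without CTRL 17 the median was 0.32 with all 10 higher (47.8% of all genes), and Pecam1 was then at 0.61. By edgeR 0 genes met the criteria (0% of all genes) and by DESeq2 0 did (0.00665%).

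Next, the genes were set against each other. The 9 genes other than Tek varied together over the 24 libraries, with Pearson r on the log2 scale of 0.63 to 0.98 (median 0.88, 36 pairs), whereas pairs with Tek had r of 0.13 to 0.40 (9 pairs). These points share library depth and scaling and include CTRL 17 and MC + Chemo 52, without which r was 0.26 to 0.92 for the 36 pairs and -0.0032 to 0.53 for pairs with Tek. Relative to the mean of the other members on the log2 scale, Kdr was at 1.65 ± 0.26 in Lean, 1.79 ± 0.18 in MC, 1.88 ± 0.18 in CTRL, 1.85 ± 0.15 in Chemo and 1.46 ± 0.41 in MC + Chemo. For Eng that difference was -0.29 ± 0.14 in Lean, -0.52 ± 0.27 in MC, 0.072 ± 0.75 in CTRL, -0.058 ± 0.26 in Chemo and -0.027 ± 0.18 in MC + Chemo. Tek in CTRL 17 stood 2.95 above its median position in the other libraries, and Cldn5 in MC + Chemo 52 stood 1.35 above.

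Of the 10293 other named genes with a mean above 30 normalized counts, those closest to the mean profile of the 10 over the 24 libraries were Plvap (r = 0.95), Mmrn2 (0.94), Robo4 (0.94), Ushbp1 (0.94), Col4a2 (0.94), Col4a1 (0.93), Nes (0.93) and Adgrf5 (0.93). Plvap, a component of the diaphragms of fenestrated capillaries, was at 975 ± 157 normalized counts in Lean, 848 ± 191 in MC, 577 ± 338 in CTRL, 658 ± 141 in Chemo and 554 ± 224 in MC + Chemo. Col4a1 and Col4a2 encode the main collagen of the basement membrane under the endothelium. Without CTRL 17 and MC + Chemo 52, Mmrn2, a matrix protein of endothelium, was closest (r = 0.89, 22 libraries), and Adgrf5 was in place 31 (r = 0.73).

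The summed counts of other endothelial genes put the group means in the same order as the 10, from Lean (7208 ± 909.5) through MC (6821 ± 585), Chemo (5863 ± 611) and CTRL (5086 ± 1831) to MC + Chemo (5039 ± 1094). Here too the same 2 tumors pulled down the means of their groups. CTRL 17 was at 2517, against 5042 to 6544 in the other CTRL tumors. MC + Chemo 52 was at 3006, against 4768 to 5923 in the others of MC + Chemo. Of 20 further pan-endothelial genes, 19 were tested, and all 19 had an interaction below 0 (54.1% of all genes), with a median of -0.66, of which 2 had an unadjusted p below 0.05 (3.3% of all genes below 0). These were Egfl7, a secreted endothelial protein (-1.32 ± 0.55, adjusted p = 0.695; -0.95 without CTRL 17), and Calcrl, the adrenomedullin receptor (-0.58 ± 0.26, adjusted p = 0.695). Egfl7 was at 629 ± 62.7 normalized counts in MC, 404 ± 243 in CTRL, 585 ± 91.8 in Chemo and 369 ± 119 in MC + Chemo. Without CTRL 17 and MC + Chemo 52 the list's median was -0.30 with 17 of the 19 below 0. For MC against CTRL its median was 0.45, and 0.19 without CTRL 17. Calcrl was higher with MC (0.45 ± 0.19, adjusted p = 0.351) and lower in MC + Chemo than in MC (-0.55 ± 0.17, adjusted p = 0.475).

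Among the genes of arteries and veins 1 of 8 tested had an interaction with an unadjusted p below 0.05 (3.3% of all genes below 0). Ephb4, the ephrin receptor of venous endothelium, was at 52.3 ± 7.32 normalized counts in Lean, 46.9 ± 12.4 in MC, 31.8 ± 10.2 in CTRL, 44.8 ± 11.1 in Chemo and 28.3 ± 5.35 in MC + Chemo. Its interaction was -1.25 ± 0.37 (adjusted p = 0.695), and -1.05 without CTRL 17. Over the 8 tested genes of that list the median was -0.33, with 6 below 0, and -0.14 without CTRL 17. Of the 10 tip-cell and sprouting genes 7 had an interaction below 0 (median -0.34, -0.037 without CTRL 17, and 0.10 without CTRL 17 and MC + Chemo 52), and Plxnd1, a semaphorin receptor, was lower in MC + Chemo than in MC (-0.84 ± 0.27, adjusted p = 0.475). The 3 tested genes of leukocyte adhesion had a median of -0.30, and of -0.12 without CTRL 17. The 4 tested lymphatic genes had one of -0.95 with 2 below 0, and of -0.92 with all 4 below 0 without CTRL 17.

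Pericyte and mural genes mark the contractile cells that wrap vessels. All 10 had an interaction below 0 (54.1% of all genes), with a median of -0.88 (all genes -0.04). Of these, 1 had an unadjusted p below 0.05 (3.3% of all genes below 0). All 10 were lower in MC + Chemo than in MC (55.5% of all genes), with a median of -0.74 (all genes -0.04). There 4 had an unadjusted p below 0.05 (6.16% of all genes lower). Kcnj8, a potassium channel of pericytes, was at 98.8 ± 18.0 normalized counts in Lean, 103 ± 15.5 in MC, 43.7 ± 29.7 in CTRL, 52.8 ± 13.8 in Chemo and 59.1 ± 16.4 in MC + Chemo. Kcnj8 was higher with MC (1.22004 ± 0.38, adjusted p = 0.251; 0.86 without CTRL 17), and its interaction was -1.08 ± 0.51 (adjusted p = 0.695; -0.73 without CTRL 17). Cspg4 (NG2), a proteoglycan of pericytes, was at -0.86 ± 0.34 in MC + Chemo against MC (adjusted p = 0.479). Without CTRL 17 and MC + Chemo 52 the mural median of the interaction was -0.43, with all 10 below 0.

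The ligands of the receptors came from both genomes. Of the 10 host ligands and co-receptors, Vegfc, the ligand of lymphatic growth, was lower with MC (-1.16 ± 0.44, adjusted p = 0.303) and had an interaction of 1.55 ± 0.60 (adjusted p = 0.695), with 32.8 ± 15.4 normalized counts in MC, 75.1 ± 39.8 in CTRL, 43.9 ± 25.6 in Chemo and 58.8 ± 16.4 in MC + Chemo. Nrp2, a VEGF co-receptor, was lower in MC + Chemo than in MC (-0.59 ± 0.20, adjusted p = 0.475). Vegfb was higher with MC (1.503 ± 0.50, adjusted p = 0.264), with 1 tumor at 729 normalized counts and a mean of 263 ± 265, and it was at 0.65 without MC 41. Host Pgf, a ligand of Flt1, was lower with Chemo (-1.27 ± 0.51, adjusted p = 1.00), and at -0.54 without CTRL 17. The median interaction of the list was -0.29, -0.099 without MC 41 and -0.092 without CTRL 17 and MC + Chemo 52.

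Among 11 tested human ligands of the tumor cells, 0 met the 3 criteria by edgeR in any comparison (1.6% of all human genes did for MC + Chemo against CTRL and 0% in the others), and 3 were lower with Chemo at an unadjusted p below 0.05 (10.4% of all 16434 human genes lower). PGF, the human placental growth factor, was at 132 ± 48.4 normalized counts in MC, 215 ± 127 in CTRL, 74.4 ± 24.5 in Chemo and 107 ± 40.01 in MC + Chemo, with a log2 fold change of -1.53 ± 0.37 for Chemo (adjusted p = 0.0782) and -1.39 without CTRL 17. PDGFC, which acts on mural and stromal cells, was at -1.01 ± 0.25 (adjusted p = 0.0845; -0.74 without CTRL 17) and VEGFC at -0.80 ± 0.37 (adjusted p = 0.257; -0.48 without CTRL 17). CXCL8, a chemokine that also draws vessels, was higher with MC + Chemo (1.11 ± 0.37, adjusted p = 0.0917). Over the 11 ligands the median for MC + Chemo against CTRL was -0.014, and -0.024 over all human genes. In the interaction the median of the 11 was 0.12 (all human genes -0.0060), with a lowest adjusted p of 0.511 by edgeR. By DESeq2 PGF and PDGFC met the criteria for Chemo against CTRL (2.94% of all human genes) and CXCL8 for MC + Chemo against CTRL (4.83%). By edgeR without CTRL 31, PGF and PDGFC met them for Chemo (6.99% of all human genes) and for MC + Chemo (6.92%). Without CTRL 70 the same 2 did for Chemo (3.69%), and with CXCL8 3 did for MC + Chemo (5.28%).

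The human counterparts of the genes were read in the human table. EMCN and CLDN5 had no row in the human table. PECAM1, CDH5, KDR and TEK stayed at or below 72.7 normalized human counts in every library, and FLT1 at or below 155. Murine Tek was itself scarce, and the total raw count of TEK was 40.2% of that of Tek, with r = 0.57 over the 24 libraries, while TIE1 was at 27.0% of Tie1 and ENG at 18.0% of Eng. FLT1 went with murine Flt1 over the 24 libraries, which share depth (Pearson r = 0.71), and both were lowest in MC + Chemo 52, and its total raw count was 9.15% of that of Flt1; how reads matching both genomes were assigned is not given in the sources used here. ESAM was at 325 to 1490 normalized human counts, with a total raw count 104% of that of murine Esam and r = -0.36. TIE1 was at 338 in CTRL 17 and 216 in CTRL 44 and at most 55.3 in the other libraries, and ENG was at 140.4 and 361 in those tumors and at most 98.8 elsewhere. Their part in the murine values was not tested.

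The surrounding tissue differed widely between libraries. The summed count of 12 skeletal muscle genes was 131 to 726 normalized counts in Lean, 94.5 to 41708 in MC, 116 to 181 in CTRL, 110 to 2633 in Chemo and 117 to 67473 in MC + Chemo, with Myh1 at 0 in 3 libraries and Mb at 0 in 8. That of 10 adipocyte genes was 118 to 12897 normalized counts in Lean, 590.5 to 70476 in MC, 109 to 3968 in CTRL, 343 to 4821 in Chemo and 458 to 58334 in MC + Chemo. At an unadjusted p below 0.05 (edgeR) all 12 muscle genes were higher than in CTRL with MC and with MC + Chemo (medians 6.42 and 7.35). So were 5 of the 10 adipocyte genes (medians 3.06 and 2.83), against 8.73 and 5.1% of all genes. In MC + Chemo against Chemo 12 of 12 and 6 of 10 were higher at that level (medians 4.84 and 2.70, 4.4% of all genes). In Chemo against CTRL 0 reached that level, though 11 of 12 and 7 of 10 were higher (medians 2.50 and 0.25, 49.7% of all genes). Of the Chemo tumors, Chemo 30 held the highest muscle sum (2633). Without MC 41 the MC medians were 3.92 and 1.33. Without MC + Chemo 52 the medians of MC + Chemo were 7.61 and 1.51 against CTRL, and 5.11 and 1.36 against Chemo. By edgeR 0 were called. MC 41 held the highest adipocyte sum and much muscle, with a vessel sum of 5377 that was the median of its group, and MC + Chemo 43 had the highest muscle sum with a vessel sum of 2672. Capillary genes of fat and muscle were counted beside these, and their MC against CTRL median was 1.16, with 5 of 7 at an unadjusted p below 0.05 (8.73% of all genes higher), and 0.55 without MC 41, with all 6 genes then tested higher. Of them Tcf15, an endothelial transcription factor of muscle and heart, was at 2.56 ± 0.90 (adjusted p = 0.284) and Cd36, a fatty acid transporter, at 2.63 ± 0.99 (adjusted p = 0.301), and without MC 41 they were at 1.04 and 1.16. Tcf15 was scarce, at 5.28 ± 4.23 normalized counts in CTRL and 31.9 ± 45.9 in MC, where the highest tumor was at 112. Cd36 was at 147 ± 31.8 in CTRL and 922 ± 1354 in MC. The part of muscle and fat in the vessel values was not tested.

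**Figure D5:**
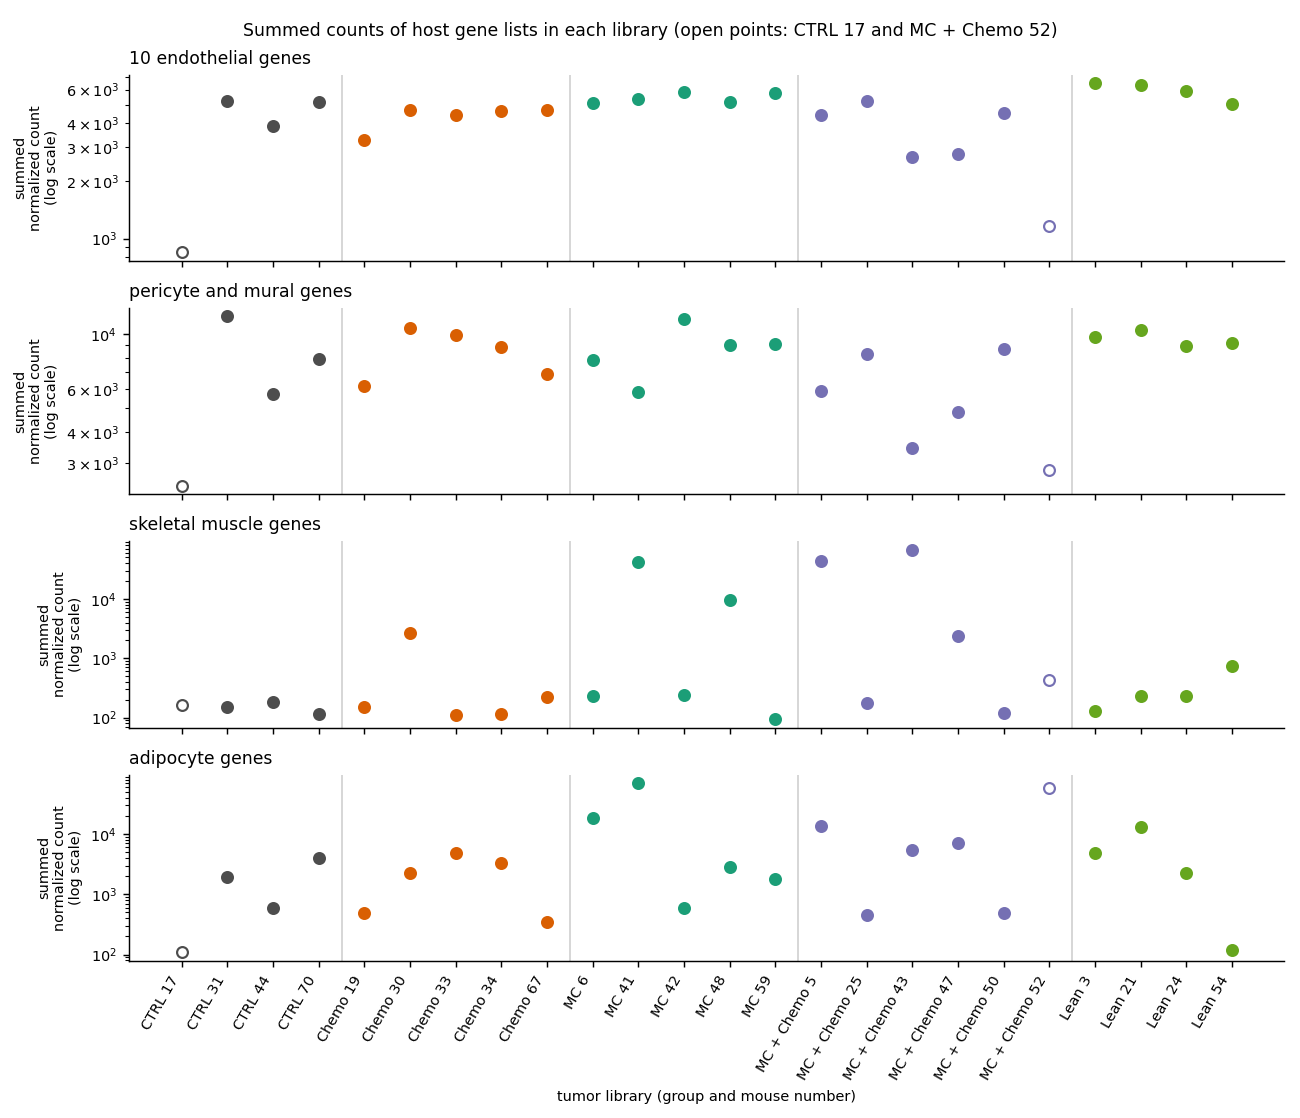
Summed normalized count (log scale) of the 10 endothelial genes and of pericyte and mural, skeletal muscle and adipocyte genes in each tumor library, with open points for CTRL 17 and MC + Chemo 52 and lines between groups. The endothelial and mural sums are low in the same tumors, while muscle is highest in MC + Chemo 43, MC + Chemo 5 and MC 41 and fat in MC 41, MC + Chemo 52 and MC 6.

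Genes of blood cells also differed in level between groups without an edgeR call. The 5 tested erythroid genes were higher than in CTRL in Chemo (median 2.41), MC (1.89) and MC + Chemo (2.62), each with 5 of 5 at an unadjusted p below 0.05 (2.13, 8.73 and 5.1% of all genes higher). They were also higher in untreated Lean than in CTRL (median 1.49), with 4 of 5 at that level (1.37% of all genes higher). Their summed counts were 694 to 2390 in CTRL and 4576 to 5165 in Lean. Their interaction had a median of -1.67 with 5 of 5 at that level (3.3% of all genes below 0). Hba-a1, an alpha globin, was at 2.59 ± 0.49 with MC + Chemo (adjusted p = 0.104). Pf4, a platelet chemokine, was higher in MC + Chemo than in MC (1.04 ± 0.29, adjusted p = 0.475), and Gp1bb, a subunit of the platelet receptor for von Willebrand factor, was lower (-0.62 ± 0.28, adjusted p = 0.492). Over the 4 tested platelet genes the median of that comparison was 0.24, with 3 above 0 and 1 below, and 0.79 without MC 41. Of the 8 macrophage genes, whose summed counts ran from 10620 to 36821 over all libraries, 6 were higher in MC + Chemo than in MC by a median of 0.29, and Lyz2 was at 0.79 ± 0.28 (adjusted p = 0.475). Summed keratinocyte genes, of which 4 of 8 were tested, ran from 315 to 982 over all libraries. The part of these cells in the vessel values was not tested.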

How the data were processed

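Total RNA of 24 tumors was sequenced from the 3' end of transcripts (QuantSeq, 50-base reads). The authors aligned reads on the BlueBee platform, and the submitters' notes name DESeq2 1.22.2 and GRCm38; how reads matching both genomes were assigned is not given in the sources used here. The authors deposited raw counts per gene and a normalized table for each genome, whose values (unit signal) are the deposited counts divided by 1 size factor per library. Tests used the raw counts with edgeR 4.0.16 in R 4.3.3 (TMM scaling, filterByExpr, quasi-likelihood F test, Benjamini-Hochberg adjustment over all genes tested), with 1 fit over the 20 libraries of the high-fat groups and 1 over all 24 for Lean. A gene was called at an adjusted p below 0.05, a mean normalized count above 30 and a fold change above 1.5. The levels given are the deposited normalized counts; log2 levels used a pseudocount of 1. DESeq2 1.42.0 and limma 3.58.1 (voom with sample weights), other scalings, no filter, other sets of libraries and each library left out were alternatives. Scripts were tested on simulated data. Replicates are separate mice; none of 47 library pairs within groups was identical. Tek and Cldn5 had few counts per library, so counting error weighs more on them.

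The 10 genes and the other lists were chosen with earlier results of these data known. Genes named from other lists are those with an unadjusted p below 0.05 in a comparison among high-fat groups, at most 2 per list and comparison. The 8 likeness genes have the highest Pearson r with the mean z-score of the 10. The human tables were handled in the same way.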

Additional observations from a re-analysis of the deposited data

Results flagged for a closer look

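The summed count of the 10 genes in Chemo 19 was 3254, below the other 4 Chemo tumors at 4409 to 4688. Its gap to the nearest of them was 0.806 of the range of the group, above Dixon's 95% critical value for 5 samples. It was the 1 value so marked among 55 combinations of gene or sum and group, and chance alone marks about 1 in 20.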

How the results depend on the processing

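By edgeR none of the 10 genes was called in any of the 7 comparisons under any alternative, and the lowest adjusted p of any of them was 0.277, in MC + Chemo vs MC. In MC + Chemo vs MC, the interaction and Lean vs CTRL no gene changed direction over 210, 290 and 170 combinations of gene and setting, apart from Cdh5 in the interaction (0.08) without CTRL 17 and MC + Chemo 52, a setting chosen after seeing the data. Taking the counts of both genomes as library size moved the median of all genes to -0.18 in MC + Chemo vs Chemo, -0.15 in MC + Chemo vs MC, -0.25 in the interaction and 0.13 in Lean vs CTRL, and that of the 10 genes to -0.51, -0.77, -1.03 and 0.76. With 1 library left out in turn, the log2 fold change for Chemo vs CTRL ran from -0.031 to 0.54 for Pecam1, -0.48 to 0.13 for Cdh5, -0.10 to 0.41 for Kdr, -0.18 to 0.40 for Flt1, -0.32 to 0.052 for Tek, -0.29 to 0.35 for Tie1, -0.25 to 0.49 for Emcn, -0.0025 to 0.63 for Esam and -0.027 to 0.63 for Cldn5. For MC vs CTRL it ran from -0.022 to 0.61 for Cdh5 and -0.039 to 0.41 for Eng. For MC + Chemo vs CTRL it ran from -0.49 to 0.10 for Pecam1, -0.62 to 0.0064 for Cdh5, -0.50 to 0.088 for Flt1, -0.42 to 0.23 for Tie1, -0.64 to 0.11 for Emcn, -0.27 to 0.38 for Esam, -0.28 to 0.16 for Eng and -0.17 to 0.50 for Cldn5. For MC + Chemo vs Chemo it ran from -0.42 to 0.073 for Cdh5, -0.23 to 0.012 for Tek, -0.30 to 0.075 for Tie1 and -0.38 to 0.10 for Cldn5. Other reversals were Cdh5 in Chemo vs CTRL (0.00025), Cldn5 in MC + Chemo vs CTRL (-0.020) and Tek in MC + Chemo vs Chemo (0.050) with limma-voom, Esam in MC + Chemo vs CTRL with both genomes (-0.077), and Cldn5 in MC + Chemo vs CTRL with MC + Chemo 5 under MC (-0.011); the cause was not tested. Summed over the comparisons, 3 human ligands were called by DESeq2 and by edgeR 0 to 5 with 1 library left out, in Chemo vs CTRL and MC + Chemo vs CTRL, where 2.94 and 4.83% of all human genes were called by DESeq2, 6.99 and 6.92% by edgeR without CTRL 31, and 3.69 and 5.28% without CTRL 70. No paired analysis was possible because the mouse numbers in the labels are not shared between groups.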
